A study of Homo sapiens with 10 samples.

Results

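Endovion and SRPIN340 were set directly against each other in 22RV1, a long-established cell line of castration-resistant prostate cancer. The comparison used the 4 libraries labelled with either compound alone, 2 with Endovion and 2 with SRPIN340, of the 10 libraries in the series. Cells were exposed for 4 h to 50 μM Endovion or to 20 μM SRPIN340, and 4-thiouridine was present for the last 10 min. The doses differ, so the effect of the compound and the effect of the dose cannot be told apart. The remaining libraries were control cells, cells given THZ531, an inhibitor of CDK12, and cells given THZ531 with 50 μM Endovion, 2 libraries each, where the dose of THZ531 is 100 nM in the methods and 150 nM in the series record. These libraries shared in the estimate of the spread. Nothing in the labels says that the libraries of a group came from separate cultures, so the p-values measure the spread between these libraries, which may be technical.

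SRPK1 phosphorylates serine/arginine-rich (SR) splicing factors, and SRPIN340 is a known inhibitor of SRPK kinases. Endovion, also called SCO-101, is known as a blocker of anion channels and of drug efflux, and the study asked whether it acts on transcription as an SRPK1 inhibitor would. In SLAM-seq, newly made RNA takes up 4-thiouridine, and after alkylation the sequencer reads it as C where the gene has T. A read with such a T>C conversion was taken as nascent RNA, and all reads of a gene as total RNA. Several of the genes below belong to the aryl hydrocarbon receptor pathway: the receptor is a transcription factor held in the cytoplasm by chaperones, and once a small molecule binds it, it pairs with ARNT and activates genes that carry the core sequence GCGTG, among them the CYP1 enzymes that oxidise aromatic compounds. Its best known target is CYP1A1, and its upstream sequence is printed here because this gene separated the compounds most. The run covers the 250 bases before the RefSeq start of CYP1A1, on the minus strand at chr15:74725529-74725778 of GRCh38.p14, with GCGTG in capitals.
CYP1A1 upstream: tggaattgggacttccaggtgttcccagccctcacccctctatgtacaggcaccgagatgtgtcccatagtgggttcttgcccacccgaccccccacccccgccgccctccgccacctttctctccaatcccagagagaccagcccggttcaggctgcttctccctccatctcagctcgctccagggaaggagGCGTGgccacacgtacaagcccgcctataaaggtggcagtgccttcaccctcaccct
The core occurred 1 time, with its first base 57 bases before the start. It was searched on both strands, and 32.2% of 35116 human promoters of the same length held it, so a match is a description and not a binding site.

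The mapped reads numbered 49326753 and 53592904 with SRPIN340 and 47668119 and 37666297 with Endovion. T>C reads on genes numbered 1449007 and 1525689 with SRPIN340 and 1301158 and 1032932 with Endovion. The labelled share, T>C reads as a percentage of reads on genes, was 5.57% and 5.08% with SRPIN340 and 5.06% and 5.17% with Endovion, and the control libraries had 5.70% and 5.63%. These shares had Wilson 95% intervals of at most ±0.00994 percentage points, which cover counting error only. The labelled share was 5.32% ± 0.350 with SRPIN340 and 5.11% ± 0.0737 with Endovion (SD, n = 2), and the groups overlapped (exact permutation test, two-sided, p = 0.667, where the smallest p that 2 against 2 allows is 0.333). Conversions per covered T were lower with Endovion in both libraries, at 0.215% and 0.214% against 0.242% and 0.216% (exact permutation test, two-sided, p = 0.333). Of the 12 markers of 22RV1 cells, 11 had at least 50 reads in both libraries of each group, and their summed level was 2248 to 2316 CPM (counts scaled to a common library size) with SRPIN340 and 2220 to 2273 with Endovion. The 15 markers of other cell types summed to 26.1 to 26.4 CPM with SRPIN340 and 24.8 to 25.7 with Endovion.

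Few genes differed between the compounds in the edgeR fit over all 10 libraries. In nascent RNA, 9946 genes were tested and 4 were higher with Endovion (0.0402% of those tested) and 2 higher with SRPIN340 (0.0201%) at a Benjamini-Hochberg adjusted p under 0.05 (edgeR quasi-likelihood test). In total RNA, 14689 genes were tested, and 4 were higher with Endovion (0.0272%) and 1 with SRPIN340 (0.00681%). The total count depended on the fit, with 25 genes called by DESeq2, 13 with the 4 libraries alone and 108 without the filter on low counts. Summing all intervals gave 3 and 1. The T>C share of a gene, its T>C reads against its other reads, gave 0 genes (0%) higher with Endovion and 0 (0%) higher with SRPIN340 of 9946. At an unadjusted p under 0.05 the share gave 174 genes higher with Endovion (1.75%) and 169 with SRPIN340 (1.7%), and 2 of the alternative fits called 1 gene each. The same count was 207 (2.08%) and 181 (1.82%) in nascent RNA and 249 (1.7%) and 291 (1.98%) in total RNA. Both directions together made up 3.90% of genes in nascent RNA, 3.68% in total RNA and 3.45% for the share. At the threshold of the study's methods, an unadjusted p under 0.05 with a log2 difference of at least 1, nascent RNA gave 91 genes higher with Endovion (0.915%) and 99 with SRPIN340 (0.995%), and total RNA gave 48 (0.327%) and 55 (0.374%). In the text below, called means called by this edgeR fit over all 10 libraries unless another fit is named. The 8 genes called in either readout were CYP1A1, CYP1B1, MT-TM, MT-TL1, MT-TV, IRX3, LRATD1 and WNT7B. CYP1A1, CYP1B1 and MT-TM were called in both, each in the same direction.

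**Figure D1:**
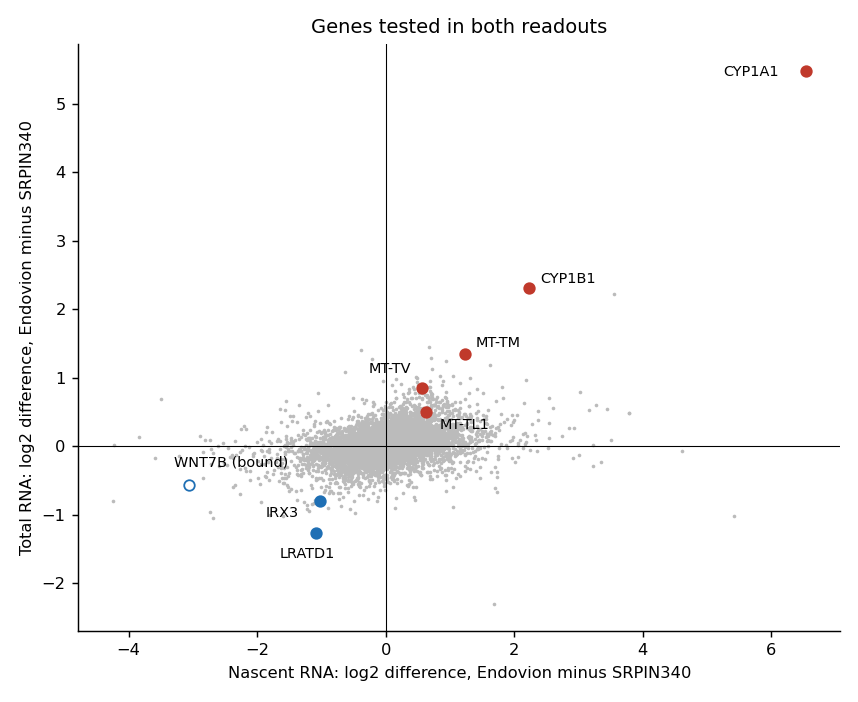
Each point is 1 of the genes tested in both readouts, with the log2 difference in nascent RNA (Endovion minus SRPIN340) on the horizontal axis and that in total RNA on the vertical axis. Named points are the 8 genes called in either readout, red where total RNA was higher with Endovion and blue where it was lower. CYP1A1 stands apart at 6.53 and 5.49, and the open point of WNT7B is a bound because no T>C read was found with Endovion.

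The absence of a call does not show that the compounds act alike, and the 95% intervals give the size of difference that could have been missed. In nascent RNA the median standard error was 0.41 on the log2 scale, and 4220 genes (42.4%) had an interval that lay wholly within a log2 difference of -1 to 1. In total RNA the median standard error was 0.21, and 10434 genes (71.0%) had such an interval. Thus the interval left out a 2-fold difference for most genes in total RNA but for under 50% of genes in nascent RNA. These intervals are per gene, without adjustment for the number of genes, and rest on the spread between these libraries. The median log2 difference over all genes was 0.01 in both readouts. Across genes, log2 CPM in total RNA correlated with r = 0.986 between the SRPIN340 libraries, r = 0.985 between the Endovion libraries and r = 0.981 to 0.987 between the compounds, given as a description. In nascent RNA the values were 0.940, 0.931 and 0.927 to 0.939.

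CYP1A1 was nearly silent with SRPIN340 and active with Endovion. The gene, at chr15:74719542-74725536 of hg38 on the minus strand, had 1 and 5 T>C reads with SRPIN340 and 234 and 207 with Endovion, against 8 and 8 in the control libraries. All its reads numbered 120 and 154 with SRPIN340, 4808 and 4817 with Endovion and 141 and 87 in the controls. The groups did not overlap in either readout, and SRPIN340 lay beside the controls. In total RNA the level was 4.69 ± 0.286 CPM with SRPIN340 and 211.1 ± 38.4 with Endovion (SD, n = 2), a log2 difference of 5.49 (SE 0.18, 95% interval 5.10 to 5.88, edgeR adjusted p = 2.38e-11) or 44.9-fold. In nascent RNA the log2 difference was 6.53 (SE 0.47, 95% interval 5.60 to 7.47, edgeR adjusted p = 2.99e-16), and its size rests on the 6 T>C reads found with SRPIN340. The T>C share of CYP1A1 was 0.833% (Wilson 95% interval 0.147 to 4.57) and 3.25% (1.39 to 7.37) with SRPIN340 and 4.87% (4.29 to 5.51) and 4.30% (3.76 to 4.91) with Endovion. These intervals overlap, and the difference in share was not detectable at this depth (edgeR log2 difference 1.17, 95% interval -0.07 to 2.42).

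CYP1B1, a relative of CYP1A1 that also oxidises oestrogens, differed in the same direction from a higher base. It lies at chr2:38066973-38109902 of hg38 on the minus strand. T>C reads numbered 50 and 58 with SRPIN340, 163 and 216 with Endovion, and 71 and 45 in the controls. Its nascent level was 35.1 ± 1.76 CPM with SRPIN340 and 166.4 ± 58.5 with Endovion, a log2 difference of 2.24 (SE 0.28, 95% interval 1.67 to 2.81, edgeR adjusted p = 5.26e-07). Total RNA differed by 2.31 (SE 0.22, 95% interval 1.82 to 2.80, edgeR adjusted p = 0.00263), or 4.96-fold. The total call was lost without SRPIN340 replicate 1 (2.37, edgeR adjusted p = 0.0612) and without SRPIN340 replicate 2 (2.25, edgeR adjusted p = 0.0739), at nearly the same size. On the 4 libraries alone the total call of CYP1B1 was also lost, at a log2 difference of 2.31 (edgeR adjusted p = 0.273). The T>C share of CYP1B1 did not pass the test, with a log2 difference of -0.05 (95% interval -0.59 to 0.49).

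The other targets of the receptor that passed the filter were not called by edgeR in the fit over all libraries, but 2 of them had the same direction and intervals that left out 0. CYP1A2, the third CYP1 enzyme, had 11 and 15 reads with SRPIN340 and 51 and 75 with Endovion, a log2 difference of 2.65 in total RNA (95% interval 1.56 to 3.73, edgeR adjusted p = 0.157). TIPARP, an ADP-ribosyltransferase that acts as a feedback repressor of the receptor, had 138 and 230 reads with SRPIN340 and 397 and 382 with Endovion, a log2 difference of 1.44 (95% interval 0.74 to 2.15, edgeR adjusted p = 0.490). TIPARP was called in total RNA by DESeq2, by edgeR on the 4 libraries alone and without the filter on low counts, and CYP1A2 without that filter. The control libraries had 83 and 57 reads of TIPARP, so both compounds lay above them. AHRR, the repressor that competes with the receptor for ARNT, had total levels of 5.05 and 3.49 CPM with SRPIN340 and 4.17 and 4.75 with Endovion, and these overlapped (log2 difference 0.06, 95% interval -0.58 to 0.71). NQO1, a quinone reductase under both this receptor and NRF2, had a log2 difference of -0.01 (95% interval -0.28 to 0.25), and SLC7A5, an amino acid transporter, one of -0.03 (95% interval -0.26 to 0.21). The list of 13 targets was written with earlier results of these data known. Of the 13, 10 were tested in total RNA. Of these, 2 were called higher with Endovion and 0 lower, against 0.0272% and 0.00681% of all genes. The median of the 10 was 0.05, beside 0.01 for all genes tested, and 6 of the 10 lay above 0, beside 51.8% of all genes. In nascent RNA 7 were tested and 6 lay above 0, beside 51.2% of all genes. Among these 7 is CYP1A1, with few T>C reads in the SRPIN340 and control libraries. It may have passed the count filter only through libraries given Endovion. The median of the 7 was 0.68 beside 0.01, and relative to all genes that median ranged from -0.09 to 1.42 over the 12 alternatives. EREG, CYP2S1 and UGT1A6 had 0 reads in all 4 libraries, and ALDH3A1, with 5 to 15 reads, had a log2 difference of -0.89 with an interval of -2.90 to 1.11.

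None of the 6 genes for the receptor and its partners was called. AHR itself had 147 and 181 reads with SRPIN340 and 255 and 114 with Endovion, so the groups overlapped (total log2 difference 0.46, 95% interval -0.14 to 1.06). ARNT, the partner in DNA binding, had a log2 difference of 0.17 (95% interval -0.12 to 0.47). For the called genes, promoter sequence was matched by symbol for 2 of 8, CYP1A1 and LRATD1. Among the receptor targets 11 had a promoter entry, and in 7 of these at least 1 promoter held GCGTG. The 32.2% given above is per single promoter, whereas several of these genes had more than 1. TIPARP held the core 2 times in 1 of its 3 promoters. AHRR, whose total levels overlapped, held it 1 time and 2 times in its 2 promoters. EREG and UGT1A6, which had no reads, held it as well. CYP1A2 and NQO1 did not hold it within this window.

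**Figure D2:**
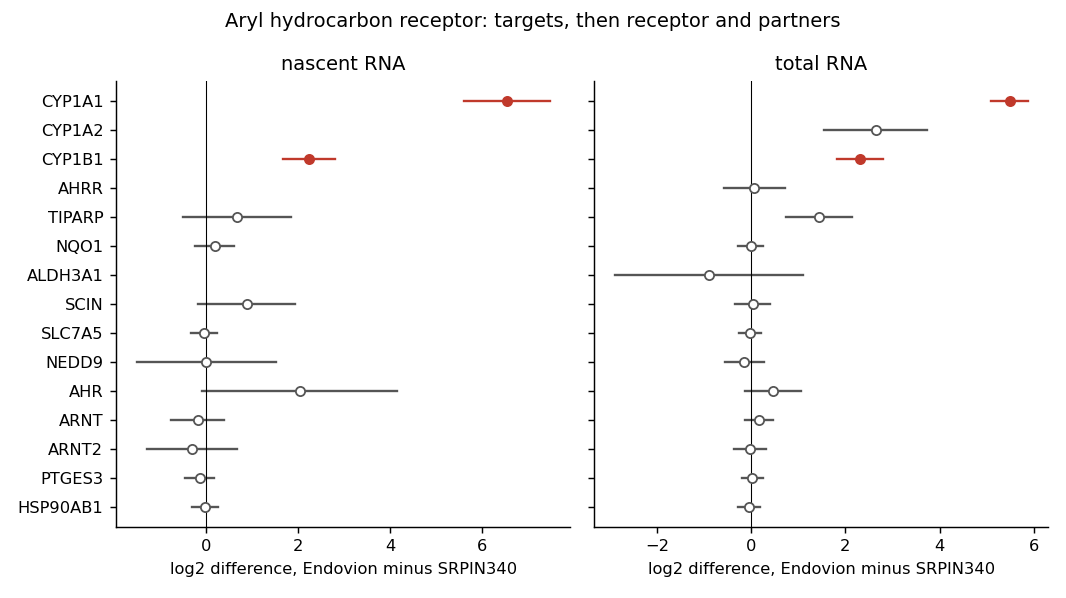
Log2 differences (Endovion minus SRPIN340) with 95% intervals for the tested targets of the aryl hydrocarbon receptor, from CYP1A1 to NEDD9, and then for the receptor and several of its partners, in nascent RNA on the left and total RNA on the right. Filled red points were called (edgeR adjusted p under 0.05), and CYP1A2 and TIPARP are the uncalled targets whose total interval lies wholly above 0.

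Genes beside CYP1A1 were then described, a choice made after the values were seen. Within 250 kb of CYP1A1, 16 other genes were tested in total RNA, of which 0 were called by edgeR and 4 had an unadjusted p under 0.05. All 4 were higher with Endovion, where 1.7% of all genes fell: CYP1A2, EDC3, CSK and CLK3. EDC3 was called by DESeq2, and EDC3 and CYP1A2 without the filter. EDC3, an activator of mRNA decapping, lies 23.3 kb downstream of CYP1A1 on the same strand and had 187 and 288 reads with SRPIN340 and 425 and 366 with Endovion (log2 difference 1.09, 95% interval 0.68 to 1.49, edgeR adjusted p = 0.0844). Its T>C reads did not share that direction, with 16 and 16 against 11 and 5. CSK, a kinase that restrains SRC, lies 56.5 kb away on the other side, with a log2 difference of 0.61 (95% interval 0.23 to 0.98). CLK3, which like SRPK1 phosphorylates SR proteins, lies 74.1 kb away and had one of 0.49 (95% interval 0.11 to 0.87).

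The next group was mitochondrial. The mitochondrial genome is transcribed as long precursors, and the tRNAs that lie between its other genes are cut out of them. Its intervals kept here were those of 14 tRNA genes and 2 ribosomal RNAs, with none for its protein-coding genes. Of these, 3 tRNA genes were called in at least 1 readout, and all were higher with Endovion than with SRPIN340. Their sequences, the plus strand of chromosome M in hg38, are shown with T in capitals because only these bases can be read as a conversion. MT-TM is the tRNA for methionine (4402 to 4469), MT-TV that for valine (1602 to 1670) and MT-TL1 a tRNA for leucine (3230 to 3304).
MT-TM: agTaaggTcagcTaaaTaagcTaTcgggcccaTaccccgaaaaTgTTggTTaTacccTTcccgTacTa
MT-TV: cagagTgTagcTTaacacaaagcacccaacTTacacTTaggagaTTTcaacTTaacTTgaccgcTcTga
MT-TL1: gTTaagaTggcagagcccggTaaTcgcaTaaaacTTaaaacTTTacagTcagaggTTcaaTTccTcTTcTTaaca
They hold 17 T among 68 bases, 17 among 69 and 21 among 75. The libraries were primed at poly(A), and all 3 genes lie next to other transcribed mitochondrial sequence, so whether the reads came from mature tRNA was not tested.

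MT-TM had the largest difference of the 3. T>C reads numbered 112 and 142 with SRPIN340, 189 and 253 with Endovion, and 321 and 194 in the controls. The nascent level was 82.3 ± 9.28 CPM with SRPIN340 and 194.2 ± 69.5 with Endovion, beside 181.1 ± 36.0 in the controls (SD, n = 2 each). The compounds did not overlap, and here SRPIN340 was the group that lay apart from the controls. The log2 difference was 1.23 in nascent RNA (SE 0.22, 95% interval 0.78 to 1.68, edgeR adjusted p = 0.00207) and 1.35 in total RNA (SE 0.16, 95% interval 1.001 to 1.70, edgeR adjusted p = 0.00210). The nascent call was lost without Endovion replicate 2 (0.82, edgeR adjusted p = 0.997) and without SRPIN340 replicate 1 (1.12, edgeR adjusted p = 0.320), and the total call without SRPIN340 replicate 1 (1.29, edgeR adjusted p = 0.0950) or replicate 2 (1.41, edgeR adjusted p = 0.0535). On the 4 libraries alone the total call of MT-TM was also lost, at a log2 difference of 1.35 (edgeR adjusted p = 0.0944). MT-TV was called in total RNA, where it had 69.8 ± 3.01 CPM with SRPIN340, 126.3 ± 12.99 with Endovion and 116.6 ± 2.52 in the controls. The log2 difference of MT-TV was 0.85 (SE 0.12, 95% interval 0.61 to 1.102, edgeR adjusted p = 0.00481). Without Endovion replicate 2, SRPIN340 replicate 1 or SRPIN340 replicate 2 it was 0.75, 0.90 and 0.81 and no longer called (edgeR adjusted p = 0.234, 0.126 and 0.214). MT-TL1, which directly follows the large ribosomal RNA MT-RNR2, was called in nascent RNA: 17528 and 16322 CPM with SRPIN340 against 26221 and 25843 with Endovion, and 22766 and 27421 in the controls. Its log2 difference was 0.62 (SE 0.13, 95% interval 0.36 to 0.88, edgeR adjusted p = 0.0187), and this call was lost in 7 of 12 alternative fits. Without any 1 of the 4 libraries the MT-TL1 difference was 0.57 to 0.67 and was not called (edgeR adjusted p = 0.214 to 0.612). In these 4 libraries T>C reads made up 10.3% to 12.5% of MT-TM reads and 15.1% to 16.3% of MT-TL1 reads. For MT-TV the T>C share was 30.2% and 25.7% with SRPIN340 and 19.2% and 24.3% with Endovion. Its T>C reads numbered 580 and 548 with SRPIN340 and 586 and 665 with Endovion. The whole libraries had 5.06% to 5.57%. A misread position cannot be told apart from labelling in these counts, so whether these T>C reads were nascent RNA was not tested. Reads on the kept mitochondrial intervals made up 18.6% and 16.6% of reads on genes with SRPIN340 and 21.0% and 17.4% with Endovion, and these overlapped.

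The difference was uneven along the mitochondrial genome. All 14 mitochondrial tRNA intervals were tested, a group formed after the values were seen. Of these, 13 in nascent RNA and 10 in total RNA were above 0, beside 51.2% and 51.8% of all genes. Their medians were 0.25 and 0.26, beside 0.01 for all genes. In total RNA the 7 intervals from MT-TF to MT-TM had log2 differences of 0.08 to 1.35, and the 9 after MT-TM had -0.31 to 0.77. MT-TW, a tRNA for tryptophan, had one of 0.07 (95% interval -0.19 to 0.34) and MT-TG, the glycine tRNA, one of 0.00 (95% interval -0.25 to 0.26), although MT-TG had 115964 to 179328 reads in each library. MT-RNR1, the small ribosomal RNA, had 0.50 (95% interval 0.20 to 0.80, edgeR adjusted p = 0.801) and MT-RNR2 0.08 (95% interval -0.24 to 0.39). MT-TS2, a serine tRNA, was the highest of those after MT-TM, at 0.77 (95% interval 0.47 to 1.07, edgeR adjusted p = 0.106). MT-TS2 was called in total RNA by DESeq2, by edgeR on the 4 libraries alone and without the filter on low counts. Without that filter MT-RNR1 was called as well. The nuclear genes for respiratory chain subunits had a median of 0.01 in total RNA, with 0 of 56 called in either direction.

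**Figure D3:**
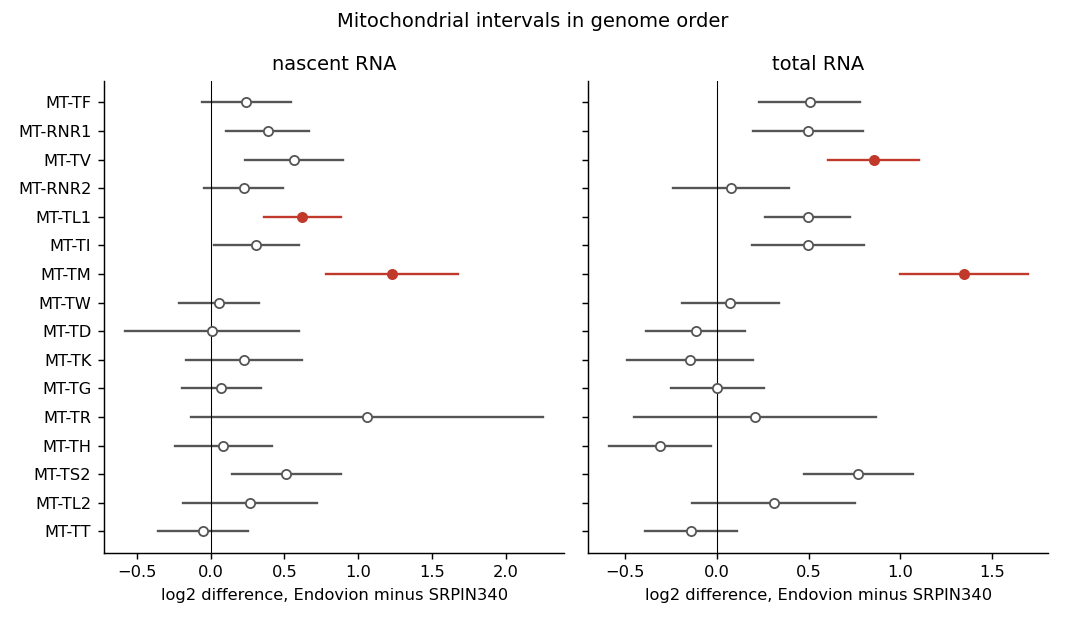
Log2 differences (Endovion minus SRPIN340) with 95% intervals for the intervals of the mitochondrial genome, in their order along it from top to bottom, in nascent RNA (left) and total RNA (right). Filled red points were called: MT-TL1 and MT-TM in nascent RNA, MT-TV and MT-TM in total RNA, all in the upper part of the map, while MT-TW and MT-TG lie close to 0.

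IRX3, LRATD1 and WNT7B were lower with Endovion than with SRPIN340. IRX3 is a homeodomain transcription factor of the Iroquois family at chr16:54283304-54286787, and it had 724 and 683 T>C reads with SRPIN340, 314 and 219 with Endovion, and 637 and 593 in the controls. Endovion was the group below the controls. Its nascent level was 458.6 ± 43.97 CPM with SRPIN340 and 225.8 ± 21.4 with Endovion, a log2 difference of -1.02 (SE 0.18, 95% interval -1.37 to -0.67, edgeR adjusted p = 0.000785), or 2.03-fold lower. Without Endovion replicate 2 or SRPIN340 replicate 1 it was -0.93 and -0.92 and the call was lost (edgeR adjusted p = 0.214 and 0.180). Total RNA had the same direction without being called in the fit over all libraries, at -0.80 (95% interval -1.23 to -0.38, edgeR adjusted p = 0.638). IRX3 was called in total RNA by DESeq2, by edgeR on the 4 libraries alone and without the filter on low counts.

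LRATD1, a gene named for its LRAT domain at chr2:14632700-14650814, was called in total RNA only. Its reads numbered 1634 and 1771 with SRPIN340, 641 and 487 with Endovion, and 1252 and 1005 in the controls. In CPM the level was 58.7 ± 3.43 with SRPIN340, 43.5 ± 1.67 in the controls and 24.3 ± 0.312 with Endovion, so that the controls lay between the compounds. The log2 difference was -1.27 (SE 0.15, 95% interval -1.59 to -0.96, edgeR adjusted p = 0.00167), or 2.41-fold lower with Endovion. Without Endovion replicate 2 or SRPIN340 replicate 1 it was -1.26 and -1.21, just short of a call (edgeR adjusted p = 0.0671 and 0.0612). Nascent RNA differed by -1.09 (95% interval -1.82 to -0.35), which did not pass adjustment.

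WNT7B, a secreted WNT ligand at chr22:45920366-45977162, was called in nascent RNA because it had 29 and 38 T>C reads with SRPIN340 and 0 and 0 with Endovion. The controls had 33 and 43, and the libraries with THZ531 and Endovion together had 19 and 32. With a floor of 3 T>C reads per Endovion library, the nascent level was at least 8.37-fold higher with SRPIN340, a bound for counting error only. Whether these T>C reads were nascent RNA was not tested: T>C reads made up 24.6% to 53.3% of the reads of WNT7B in the 8 libraries without Endovion alone, and a misread position cannot be told apart from labelling in these counts. All its reads numbered 64 and 90 with SRPIN340 and 38 and 43 with Endovion, and total RNA did not differ beyond its error (log2 difference -0.57, 95% interval -1.38 to 0.25). T>C reads thus made up 45.3% (Wilson 95% interval 33.7 to 57.4) and 42.2% (32.5 to 52.5) of the reads with SRPIN340, where the whole library had about 5.08% to 5.57%. With Endovion, 0 of 38 reads and 0 of 43 reads carried a conversion, which allows shares of up to 7.89% and 6.98%. The share of WNT7B was not called over all genes (edgeR adjusted p = 0.240).

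**Figure D4:**
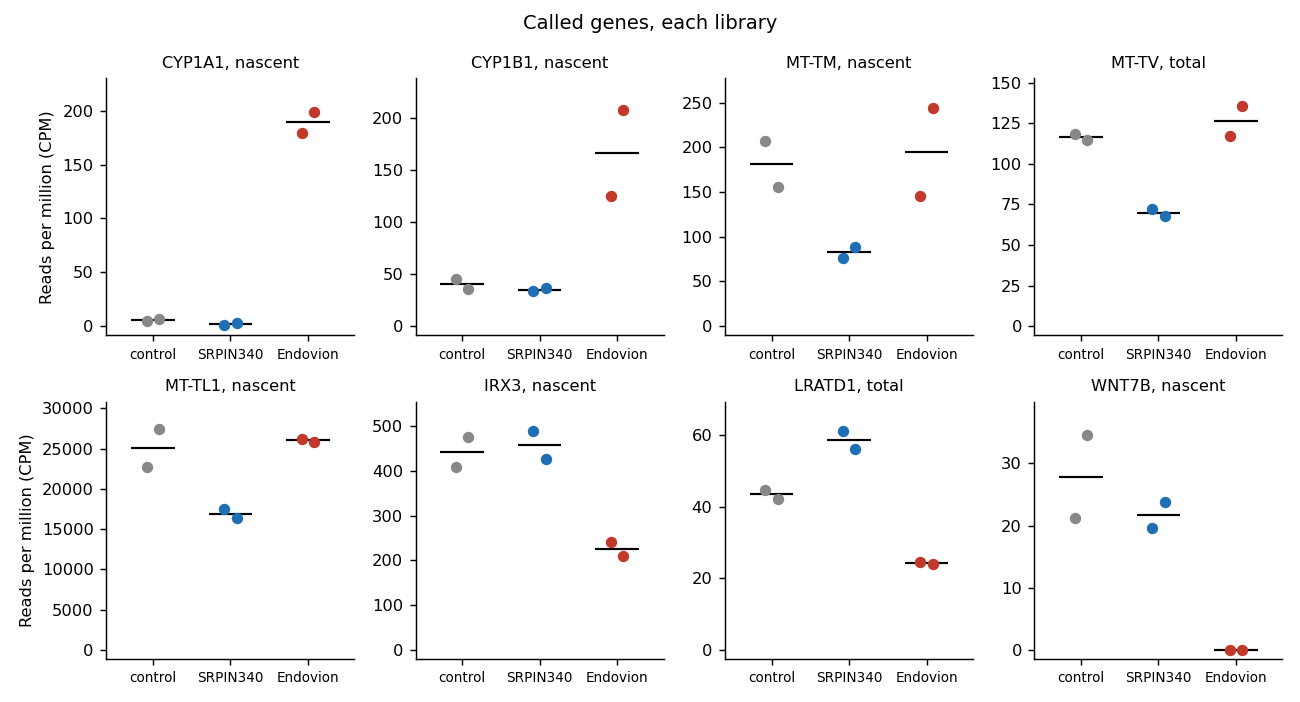
CPM of the 8 called genes in each control, SRPIN340 and Endovion library, in the readout named above each panel, with points for libraries and bars for the mean of 2. CYP1A1, CYP1B1, IRX3 and WNT7B set Endovion apart from both other groups, MT-TM, MT-TV and MT-TL1 set SRPIN340 apart, and for LRATD1 the controls lie between.

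The RNA levels of the genes below, on which the study turns, did not differ beyond their error. These values are 3′ end RNA of whole genes after 4 h, and they measure neither phosphorylation, protein nor splicing. SRPK1, the kinase in question, had 60.3 and 67.0 CPM in total RNA with SRPIN340 and 65.3 and 63.2 with Endovion, and these overlapped (log2 difference 0.01, 95% interval -0.39 to 0.42). SRPK2, its close relative, differed by 0.13 (95% interval -0.24 to 0.51), and SRSF1, an SR protein that SRPK1 phosphorylates, by 0.17 (95% interval -0.26 to 0.60). CDK12, the target of THZ531, differed by 0.13 (95% interval -0.17 to 0.43), and VEGFA, whose splicing SRPK1 is known to govern, by -0.03 (95% interval -0.39 to 0.32). For these genes a difference of 2-fold or more lay outside the interval in total RNA. MYC had a log2 difference of -0.01 with a wider interval of -0.95 to 0.93. In nascent RNA SRPK1 differed by 0.15 (95% interval -0.37 to 0.66) and MYC by -0.08 (95% interval -0.52 to 0.36). The nascent difference of SRPK2 was 0.69, not called, and ranged from 0.28 to 1.28 over the 12 alternatives. Those of SRSF1, CDK12 and VEGFA were -0.02, 0.29 and -0.02, and that of VEGFA ranged from -0.36 to 0.43.

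Among the 33 gene lists, only the aryl hydrocarbon receptor targets had a member called in either readout by edgeR over all libraries. The lists were written with earlier results of these data known, so this is a description and no separate support. In total RNA, DESeq2 also called HEXIM1, MSMO1 and DUSP4, and edgeR on the 4 libraries alone called HEXIM1, MSMO1, JUN and PNRC1. The lists with at least 10 members tested had medians of -0.13 to 0.16 in nascent RNA and -0.14 to 0.12 in total RNA, beside 0.01 for all genes in each. The lowest median in both readouts was that of cholesterol and fatty acid synthesis. Of its 31 members tested in total RNA, 0 were called by edgeR in the fit over all libraries, although MSMO1 was called by DESeq2 and with the 4 libraries alone, and both MSMO1 and HMGCS1 without the filter. At the same time 7 had an unadjusted p under 0.05 and all 7 of these were lower with Endovion, beside 1.98% of all genes in that direction. MSMO1, a sterol methyl oxidase, had 112.2 and 119.0 CPM with SRPIN340 and 75.1 and 76.6 with Endovion (log2 difference -0.61, 95% interval -0.90 to -0.32, edgeR adjusted p = 0.354). HMGCS1, which makes the precursor of mevalonate, differed by -0.48 (95% interval -0.74 to -0.21), and SQLE, squalene epoxidase, by -0.43 (95% interval -0.69 to -0.17). ELOVL6, MVK and STARD4 had differences of -0.41, -0.39 and -0.33. In nascent RNA, 3 of 27 members tested had an unadjusted p under 0.05, HMGCS1, MSMO1 and CYP51A1. They were again all lower with Endovion, beside 1.82% of all genes in that direction.

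Other lists were spread around the median of all genes or lay slightly to one side. Of 30 genes of mitosis, 29 were above 0 in total RNA, beside 51.8% of all genes. Their median was 0.12 with 0 called, and HMMR and AURKA had 0.30 and 0.24. The ATF4 and integrated stress response list had a median of 0.16 in nascent RNA and 0.09 in total RNA, with 0 of 39 called, and SLC7A11, the cystine transporter, had 0.39 (95% interval 0.12 to 0.67). The unfolded protein response list had 0 of 32 called and a median of -0.01 in total RNA. Immediate early genes went both ways: of 40 tested in total RNA, 3 had an unadjusted p under 0.05 and were higher with Endovion (JUN at 0.77, JUND at 0.33 and KLF10 at 0.83) and 4 were lower (DUSP1 at -0.61, DUSP4 at -0.74, KLF6 at -0.45 and ZFP36L1 at -0.33), beside 1.7% and 1.98% of all genes. Of the antiproliferative genes, PNRC1 had 0.75 (95% interval 0.08 to 1.42) and BTG1 -0.50 (95% interval -0.78 to -0.21), neither of them called by edgeR in the fit over all libraries, though both were without the filter and PNRC1 with the 4 libraries alone. HEXIM1, an inhibitor of the elongation kinase P-TEFb, had 34.3 and 42.7 CPM with SRPIN340 and 66.7 and 68.2 with Endovion in total RNA (log2 difference 0.81, 95% interval 0.42 to 1.19, edgeR adjusted p = 0.354). SR protein genes had a median of 0.02 and hnRNP genes one of 0.07 in total RNA, with 0 of 22 and 0 of 23 called.

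**Figure D5:**
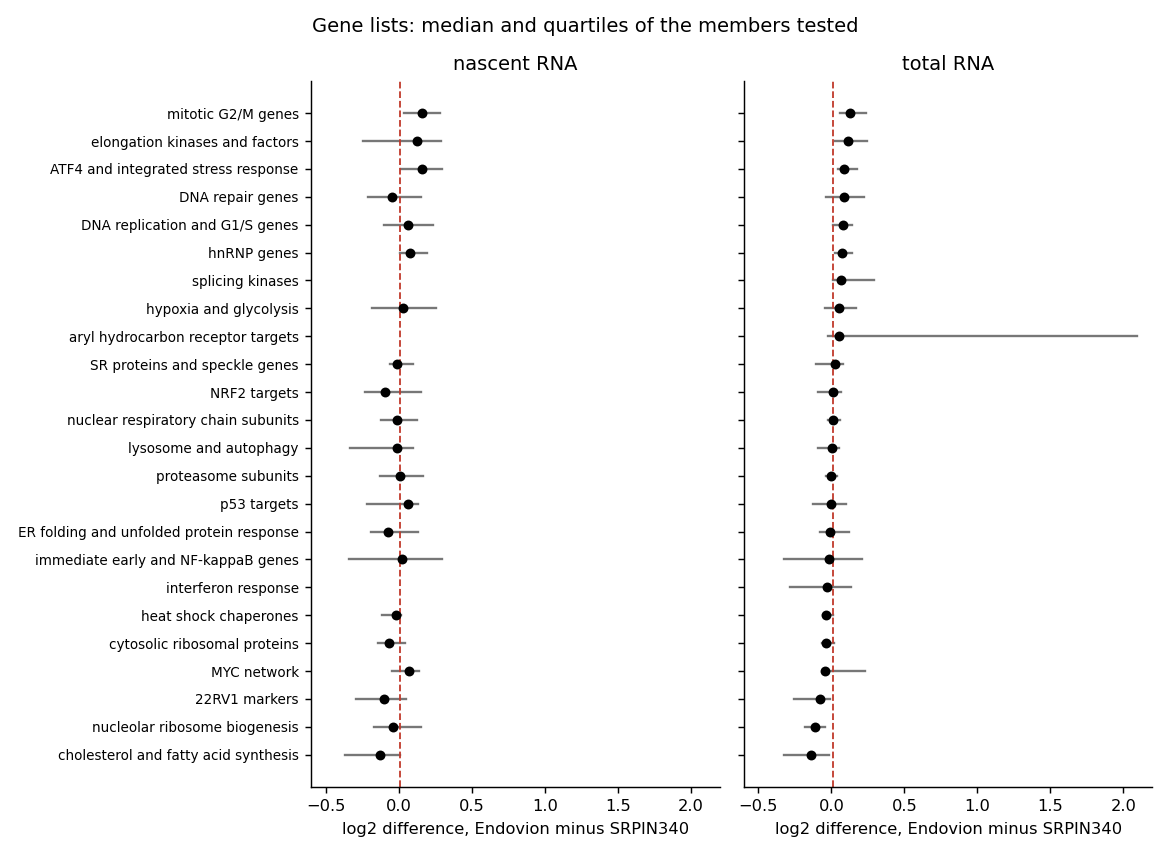
Median (points) and quartiles (lines) of the log2 difference, Endovion minus SRPIN340, over the tested members of gene lists with at least 10 of them, in nascent RNA (left) and total RNA (right). The dashed line is the median of all genes tested, and all points lie between -0.14 and 0.16, with the long upper quartile of the aryl hydrocarbon receptor targets in total RNA as the exception to the narrow spread.

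By gene length and exon number, median differences lay close to that of all genes and no member was called. Protein-coding genes with over 15 kb of merged exons had a median nascent difference of -0.01 (562 tested, 0 called), those under 1 kb one of -0.04 (109 tested, 0 called), those with more than 30 exons one of -0.00 (421 tested, 0 called) and those with 1 exon one of 0.02 (120 tested, 0 called), beside 0.01 for all genes. Genes spanning over 200 kb had a median of -0.03 in nascent RNA (687 tested) and 0.02 in total RNA (1054 tested), with 0 called in both. In total RNA the medians were 0.02 over 15 kb, -0.04 under 1 kb, 0.01 with more than 30 exons and 0.01 with 1 exon. At an unadjusted p under 0.05, 9 of 205 genes with 1 exon were higher with Endovion and 2 lower. Of 211 genes under 1 kb, 0 were higher and 5 lower. For all genes these shares were 1.7% and 1.98%.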

How the data were processed

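SLAM-seq was made from 22RV1 cells in 5 groups of 2 libraries each. Per the study's methods, RNA was alkylated and made into 3′ end libraries with molecular identifiers, read single-end, and conversions were counted with SLAM-DUNK (version not given in the sources used here). Whether the identifiers were used to remove duplicates is not stated. The submitters' processing notes name hg38, Bowtie2 2.3.4.1, SAMtools 1.6 and DESeq2 1.38.2.

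The deposited files hold, for each 3′ UTR interval of a transcript, counts that the authors did not normalize (all reads, reads with T>C, the T positions covered and their conversions), a conversion rate deposited as a fraction and a score, the deposited scaled read number. Only the counts were used. Of 104653 intervals, 96427 lay on chromosomes and 92826 matched a GENCODE v44 transcript; the rest held 3.53% of T>C reads and were left out. Among overlapping intervals of a gene the best covered was kept (57382 intervals, 31015 genes), and kept intervals were summed per gene. The build was checked on 5000 intervals, whose T content equalled that of hg38 in 5000. For 3739 genes the interval overlaps one of another gene, among them AHRR, HMGCS1, NQO1, SLC7A11, SRSF1 and UGT1A6, whose values are uncertain for that reason.

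T>C reads (nascent) and reads (total) were compared by edgeR 4.0.16 under R 4.3.3 (filterByExpr, TMM, robust quasi-likelihood fit over all 10 libraries, 5 residual degrees of freedom), and the T>C share with both read kinds of each library in 1 fit. The contrast was Endovion minus SRPIN340. CPM are counts per 1e+06 reads on TMM-scaled library sizes. Adjusted p-values are Benjamini-Hochberg over all genes tested. The scripts were tested on simulated data with known answers.

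Named genes were the 10 with the smallest p in each direction among those with adjusted p under 0.05, a log2 difference of at least 1 where at least 10 passed it, at least 20 T>C reads (50 reads for total RNA) in the higher group and no overlap, plus list members that were called and 7 genes the study turns on. Some genes under that rule or in the lists are not reported here. List members that were not called are given as values; other genes were chosen after their values were seen. The comparison, lists and tests were chosen with earlier results of these data known. Alternatives were DESeq2 1.42.0, other scalings, filters, sums and fits, and leaving out each library. No library without 4-thiouridine was analysed here, and conversions lay at 0.211% to 0.250% of covered T, so the part of T>C reads that is background was not measured.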

Additional observations from a re-analysis of the deposited data

How the results depend on the processing

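CYP1A1 was called in both readouts under every alternative run (12 in nascent RNA and 11 in total RNA), with log2 differences of 5.87 to 7.93 and 5.29 to 5.66. CYP1B1 lost its call in 1 of 12 and 3 of 11, IRX3 in 3 of 12 (nascent), LRATD1 in 2 of 11 (total), MT-TM in 3 of 12 and 3 of 11, MT-TV in 4 of 10 (total), WNT7B in 1 of 11 (nascent) and MT-TL1 in 7 of 12 (nascent), and no called gene changed direction. Counts of genes higher with Endovion and with SRPIN340 changed as follows. In nascent RNA the counts of 4 and 2 became 1 and 0 when all intervals were summed, and the second became 1 without genes over 20% T>C, which removes WNT7B. In total RNA the counts of 4 and 1 became 10 and 15 with DESeq2, 8 and 5 with the 4 libraries alone, and 76 and 32 without the filter on low counts. The 25 genes of DESeq2 and the 108 called without the filter included all 5 of the main calls. The 13 called with the 4 libraries alone included 3 of these 5, without CYP1B1 and MT-TM. All 108 had also passed the filter, and the cause was not tested. At the methods' threshold the total count of 48 became 77 without the filter. The share gave 1 gene with the 4 libraries alone, ATP5MGL.

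Leaving out 1 library at a time gave 2 to 3 and 1 to 2 genes in nascent RNA and 1 to 4 and 0 to 1 in total RNA. The lowest counts came without Endovion replicate 2 or SRPIN340 replicate 1 (2 higher with Endovion in nascent RNA), and without either SRPIN340 replicate (1 in total RNA). At the methods' threshold the ranges were 80 to 204 and 69 to 158 in nascent RNA and 41 to 125 and 34 to 88 in total RNA, the highest without SRPIN340 replicate 2 for genes higher with Endovion and without Endovion replicate 1 for the others. For the share they were 0 to 0 and 0 to 1 (COX6A1, without SRPIN340 replicate 1). The difference in labelled share, -0.211 percentage points, ranged from -0.459 to 0.036 and changed direction without SRPIN340 replicate 1. Of 39 gene lists and classes, 18 had a median above that of all genes in each readout, and 15 to 20 and 13 to 22 did with 1 library left out.

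Replicate numbers did not pair the libraries, since deviations of same-numbered libraries correlated with r = -0.071 to 0.062 in nascent RNA and -0.151 to 0.198 in total RNA. With the replicate number as a block, 4 and 2 genes were called in nascent RNA, 4 and 1 in total RNA and 0 and 0 for the share, with 87 and 93 and with 42 and 47 at the methods' threshold. The block moved no call.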

Other observations

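The libraries with THZ531 alone and with THZ531 plus Endovion are not those set against each other above. They give the values of the called genes when Endovion was added to another inhibitor. Their contrast came from the same fit over all 10 libraries. Its p-values share the estimate of the spread with the comparison above and are not independent of it. CYP1A1 was higher with the combination than with THZ531 alone, by a log2 difference of 3.34 in nascent RNA (edgeR adjusted p = 1.01e-07) and 3.57 in total RNA (edgeR adjusted p = 4.22e-09), and CYP1B1 by 2.10 (edgeR adjusted p = 9.36e-06) and 1.83 (edgeR adjusted p = 0.00705). LRATD1 was lower in total RNA, at -0.91 (edgeR adjusted p = 0.0137), and so were HMGCS1 at -0.76 (edgeR adjusted p = 0.0137) and MSMO1 at -0.74 (edgeR adjusted p = 0.0258), sterol genes that edgeR did not call between the compounds in the fit over all libraries. IRX3 differed by -0.59 in nascent RNA (edgeR adjusted p = 0.194). The mitochondrial tRNA genes MT-TM, MT-TV and MT-TL1 had total differences of 0.48, 0.31 and 0.17, none of them called, and WNT7B had a nascent difference of -0.12. Whether these differences depart from those between Endovion and SRPIN340 was not tested.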
